A study of Caenorhabditis elegans with 6 samples.

Results

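Glutathione S-transferases and the genes around the transcription factor SKN-1 were followed in RNA-seq counts from whole Caenorhabditis elegans. Members were chosen by symbol, with earlier results of these data known. They were every gene named gst-, gsto- or gpx- with a number, together with gcs-1, gss-1, gsr-1, skn-1, wdr-23, prdx-2 and trxr-1. This gave 62 of 46911 gene identifiers, of which 44 were gst genes, 3 gsto genes and 8 gpx genes. Animals carrying nmr-2(ok3324), a mutant allele of nmr-2, which codes for one subunit of the worm's NMDA-type glutamate receptors, were compared with wild-type N2 animals (WT), and each genotype had 3 libraries. All animals were L4 larvae, the last larval stage, raised at 20 °C on the OP50 strain of Escherichia coli from eggs laid over 3 h by about 40 adults, and were untreated apart from washing in M9 buffer. No transgene is named for either genotype, and the labels do not say whether the mutant strain was backcrossed. Each library came from many pooled animals, so that fewer cells of a type and less RNA per cell cannot be told apart.

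Glutathione is a small thiol that cells use to neutralise reactive oxygen and electrophilic compounds. Glutathione S-transferases join it to such compounds, glutathione peroxidases use reducing power to break down peroxides, and GCS-1 carries out the rate-limiting step of glutathione synthesis. In the worm much of this defence is switched on by SKN-1, the counterpart of mammalian Nrf2, which works in the intestine and elsewhere and is held down by the adaptor WDR-23, a substrate receptor for a ubiquitin ligase. The gst-4 promoter is the field's usual reporter of SKN-1 activity.

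Libraries held 21234748 to 27893186 counts. TMM scaling factors, which adjust libraries for a few highly abundant genes, reached 1.196 for nmr-2(ok3324) replicate 2, fell short at 0.838 for WT replicate 2, and lay between 0.986 and 1.01 in the other 4. Both libraries numbered 2 therefore stood apart, in opposite directions, and results are also given without them where that changes a call. The mutated gene nmr-2 had 3, 5 and 5 counts in nmr-2(ok3324) libraries and 7, 2 and 10 in WT libraries, too few to check the genotype labels. The stage label goes against the yolk protein genes vit-2 and vit-6, known to be switched on as hermaphrodites become adult. vit-2 averaged 19030 ± 2930 CPM (counts scaled with TMM to 1000000 per library) in nmr-2(ok3324) animals and 21638 ± 802 CPM in WT animals, and vit-6 18667 ± 1903 CPM in nmr-2(ok3324) animals and 19795 ± 682 CPM in WT animals (SD, n = 3 each). Of 13137 genes with enough counts to test, 236 rose and 49 fell in nmr-2(ok3324) animals at a Benjamini-Hochberg adjusted p of 0.05 by edgeR's quasi-likelihood test. These are 1.8% and 0.373% of the tested genes, given here to stand beside counts of members. Members were chosen with earlier results of these data known, so a count above these shares is not independent support.

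Of the 62 members, 45 had enough counts to test, 4 rose, 0 fell and 41 did not pass. The 4 were gst-4, gst-20, gst-24 and gst-30, all of the gst family, in which 29 of 44 genes were tested. No gsto, gpx, synthesis, reductase, peroxiredoxin or regulator gene passed, among 16 tested, of which 0 had an unadjusted p under 0.05. At an unadjusted p under 0.05 there were 6 members with a higher and 1 with a lower value in nmr-2(ok3324) animals, where all tested genes gave 10.3% and 6.91%. DESeq2 and limma-voom called the same 4 members and 0 fallen ones, where DESeq2 called 1.74% of all its genes higher and 0.637% lower, and limma-voom 1.66% and 0.304%. The median log2 fold change, nmr-2(ok3324) over WT, was 0.09 over the tested members, 0.18 over the tested gst genes and 0.01 over the other 16, against 0.03 over all tested genes. It was above 0 in 28 of the 45 members and in 53.4% of all tested genes.

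**Figure D1:**
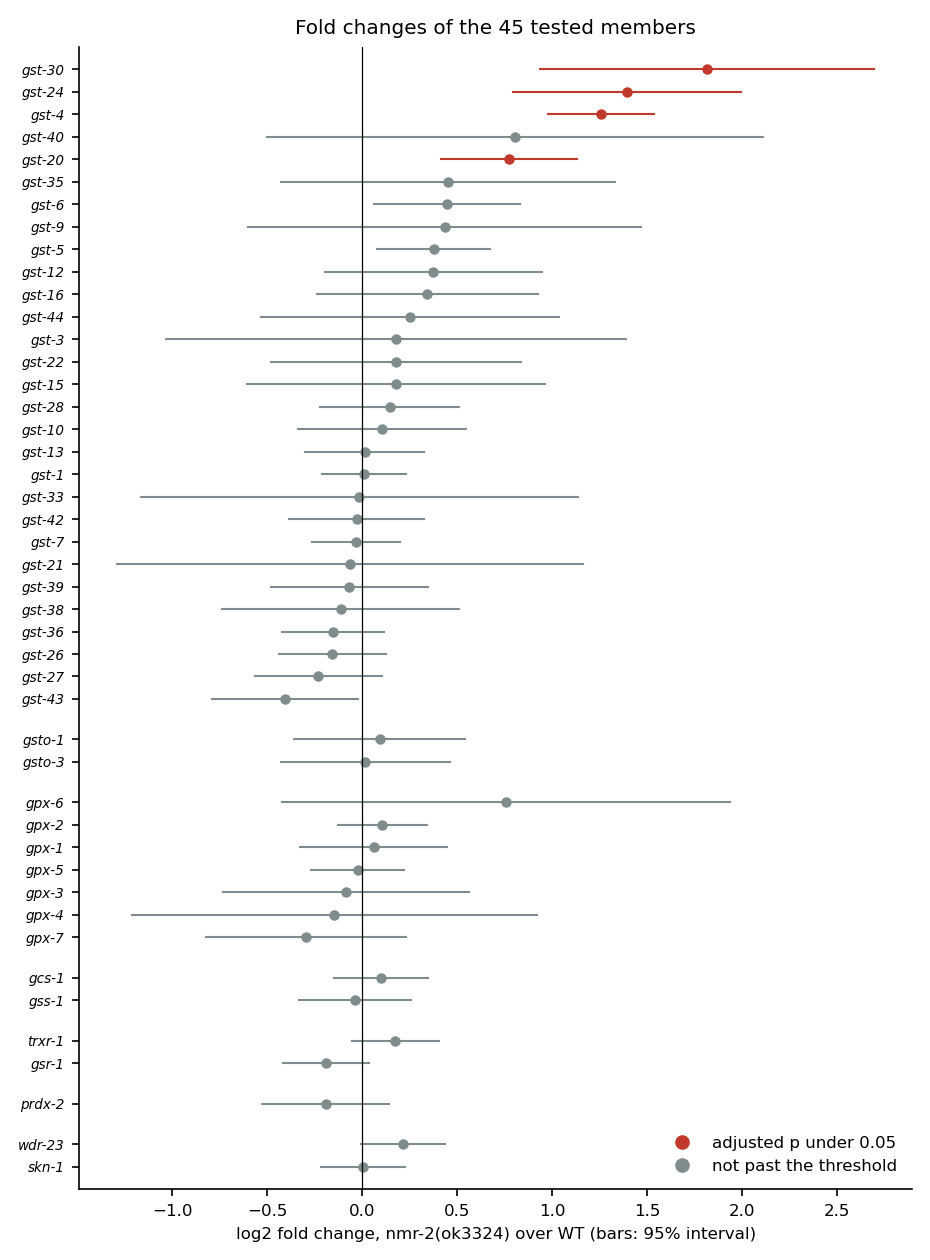
Log2 fold change (x axis, nmr-2(ok3324) over WT, 3 libraries each) of the 45 tested members, grouped by role from the gst genes at the top to the regulators at the bottom; points are edgeR estimates and bars 95% intervals. The 4 red points, at 0.77 to 1.81, are gst genes, while the intervals of skn-1, gcs-1 and all gpx genes straddle 0.

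The best supported change was in gst-4 (WBGene00001752; WBcel235 chromosome IV, 10142225 to 10143099, plus strand). In CPM, gst-4 stood at 33.9, 33.2 and 30.8 in the nmr-2(ok3324) libraries and at 15.7, 13.2 and 12.2 in the WT libraries. The lowest mutant library lay far above the highest WT library, and groups that did not overlap in this direction were found for 13.4% of all tested genes. The mean was 32.6 ± 1.62 CPM in nmr-2(ok3324) animals and 13.7 ± 1.83 CPM in WT animals (SD, n = 3 each), a log2 fold change of 1.26 (SE 0.13, edgeR adjusted p = 2.5e-05). The call held under all 14 alternative settings, with log2 fold changes of 1.16 to 1.43 and adjusted p of at most 0.0012. In its annotated exons gst-4 shares 65 of 731 bases with dhs-12, a short-chain dehydrogenase gene on the same strand. dhs-12 itself stood at 54.6 ± 8.32 CPM in nmr-2(ok3324) animals and 63.7 ± 3.31 CPM in WT animals (SD, n = 3 each), a difference in the other direction that did not pass (log2 fold change -0.22, edgeR adjusted p = 0.34).

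The genes gst-20 and gst-24 lie side by side on chromosome II, on the minus strand, 618 bases apart in WBcel235. gst-24 (WBGene00001772; 13610443 to 13611366) encodes one of the worm transferases reported to act on 4-hydroxynonenal, a product of lipid peroxidation. It stood at 4.47, 2.76 and 4.75 CPM in nmr-2(ok3324) libraries and at 1.38, 1.552 and 1.61 CPM in WT libraries. The WT values were close together and the mutant ones spread more widely, with replicate 2 the lowest, yet the groups did not overlap (log2 fold change 1.39, SE 0.28, edgeR adjusted p = 0.014). gst-20 (WBGene00001768; 13608154 to 13609824) was more abundant, at 24.4, 17.97 and 24.3 CPM in nmr-2(ok3324) libraries and 12.01, 16.1 and 11.1 CPM in WT libraries (log2 fold change 0.77, SE 0.17, edgeR adjusted p = 0.023). Here the gap between the groups was narrow, since the lowest mutant value and the highest WT value both came from the libraries numbered 2. Both calls depended on single libraries. That of gst-20 was lost without nmr-2(ok3324) replicate 1 (log2 fold change 0.70, edgeR adjusted p = 0.097) or 3 (0.70, 0.079), and without WT replicate 1 (0.71, 0.12) or 3 (0.65, 0.11). That of gst-24 was lost without nmr-2(ok3324) replicate 1 (1.30, 0.070) or 3 (1.25, 0.058), and without WT replicate 1 (1.33, 0.078).

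Over all 6 libraries the widest fold difference among members was that of gst-30 (WBGene00001778; WBcel235 chromosome II, 4933883 to 4935054, minus strand), a gene used alongside gst-4 to read SKN-1 activity. It was a rare transcript, with 91, 67 and 42 counts in the nmr-2(ok3324) libraries and 25, 5 and 21 in the WT libraries. In CPM these were 3.23, 2.50 and 2.00 in nmr-2(ok3324) animals and 1.08, 0.242 and 0.845 in WT animals, so that every mutant library lay above every WT library. This amounted to a log2 fold change of 1.81 with a 95% interval of 0.94 to 2.69 (SE 0.41, edgeR adjusted p = 0.030). The call was lost without nmr-2(ok3324) replicate 1 (1.62, adjusted p = 0.13) or WT replicate 3 (1.92, 0.068), and when libraries were scaled by their totals alone (1.96, 0.069). Its place as the widest rested on WT replicate 2, with 5 counts: without that library gst-30 stood at 1.42 and gst-24 at 1.40, and without both libraries numbered 2 at 1.45 and 1.62.

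**Figure D2:**
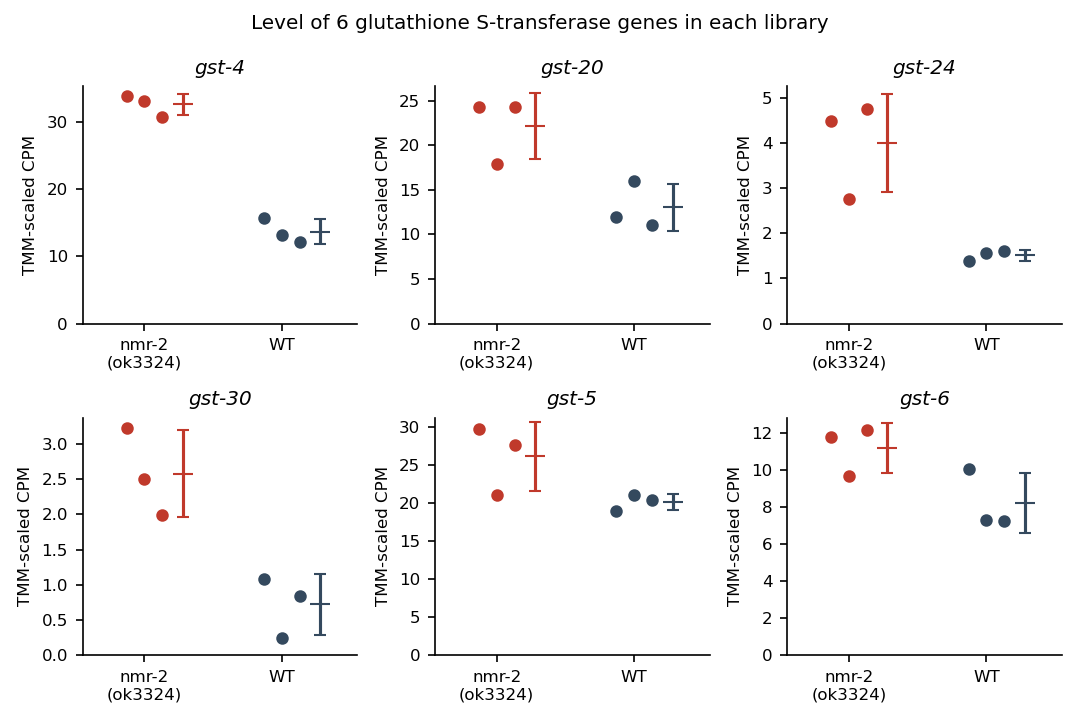
TMM-scaled CPM (y axis, from 0) of 6 gst genes in the 3 nmr-2(ok3324) libraries (red, left) and the 3 WT libraries (blue, right); the bar beside each group is the mean ± SD. For gst-4, gst-20, gst-24 and gst-30 every mutant library lies above every WT library; gst-5 barely separates and gst-6 overlaps.

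Among the gst genes that did not pass, gst-5 and gst-6 were higher in nmr-2(ok3324) animals at an edgeR unadjusted p under 0.05. gst-5 stood at 29.7, 21.1 and 27.7 CPM in nmr-2(ok3324) libraries and 18.98, 21.04 and 20.4 CPM in WT libraries (log2 fold change 0.38, SE 0.14, edgeR adjusted p = 0.20). The mutant replicate 2 lay level with the WT libraries, and gst-5 passed without it (0.51, adjusted p = 0.041) and without both libraries numbered 2 (0.54, adjusted p = 0.0067). Those 2 fits called 1.45% and 2.61% of all genes higher, and 0.389% and 1.4% lower. gst-6 stood at 11.8, 9.67 and 12.2 CPM in nmr-2(ok3324) libraries and 10.1, 7.32 and 7.24 CPM in WT libraries (log2 fold change 0.45, edgeR adjusted p = 0.23), and these groups overlapped. The lowest fold change of any tested member was that of gst-43, at 5.99, 5.68 and 6.84 CPM in nmr-2(ok3324) libraries and 8.35, 8.92 and 7.204 CPM in WT libraries. All mutant values of gst-43 lay below all WT values, as for 11% of tested genes in this direction, but the difference did not pass (log2 fold change -0.40, SE 0.18, edgeR adjusted p = 0.27).

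The 3 most abundant transferases showed no change past the threshold. Expressed per length, as transcripts out of 1000000 in a library (TPM, computed without TMM factors), the 3 highest gst genes were gst-1, gst-7 and gst-27 in both genotypes. They stood at 229 ± 13.8, 205 ± 25.6 and 120 ± 8.26 TPM in nmr-2(ok3324) animals and at 198 ± 21.6, 183 ± 38.3 and 122 ± 12.4 TPM in WT animals (SD, n = 3 each). Library by library, gst-1 and gst-7 stood at 216 and 189, 244 and 234, and 226 and 191 TPM in nmr-2(ok3324) animals. In WT animals they stood at 213 and 217, 173 and 141, and 209 and 191 TPM. The difference between these genes was not tested. On the CPM scale used for testing, gst-1 had a log2 fold change of 0.01 (95% interval -0.21 to 0.23), gst-7 of -0.03 (-0.26 to 0.20) and gst-27 of -0.23 (-0.57 to 0.10). The intervals of gst-1 and gst-7 leave little room for a change of the size seen in gst-4. For gst-26, gst-10 and gst-36, the log2 fold changes were -0.16, 0.11 and -0.15, with edgeR adjusted p of 0.54, 0.82 and 0.53. The risen gst-4, and gst-5, are also among the 8 most abundant gst genes over all libraries, and their values are given above.

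The order of the gst genes by level per length shifted around gst-4. It ranked 5 among the 44 gst genes in nmr-2(ok3324) animals, at 59.6 ± 9.15 TPM, and 9 in WT animals, at 21.7 ± 4.31 TPM. In the mutant it lay next to gst-26 (66.0 ± 8.25 TPM) and above gst-5 (47.4 ± 2.73 TPM) and gst-10 (47.2 ± 8.64 TPM), from which it differed by little more than the spread. In WT animals it lay below a run of genes that overlapped in their spread, from gst-10 (36.9 ± 10.2 TPM) through gst-36 (35.7 ± 1.91 TPM) and gst-13 (33.7 ± 9.57 TPM) to gst-5 (32.1 ± 3.14 TPM), and next to gst-20 (18.2 ± 1.32 TPM). gst-20 ranked 10 in both genotypes. gst-24 ranked 16 in nmr-2(ok3324) animals and 21 in WT animals, and gst-30 ranked 18 and 24.

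**Figure D3:**
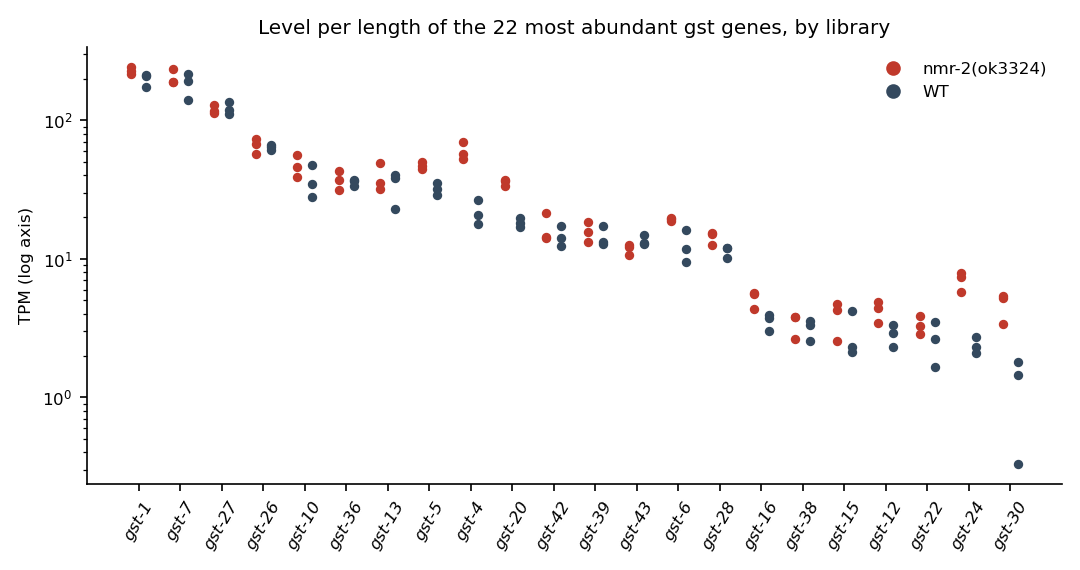
Level per length in TPM (log axis) of the 22 most abundant gst genes in each nmr-2(ok3324) library (red, left of each pair) and WT library (blue, right), ordered by the WT mean. The mutant points of gst-4, gst-20, gst-24 and gst-30 stand clear of the WT points, while those of gst-7 and gst-27 near the top overlap. On this scale without TMM factors, the mutant points of gst-1, gst-5, gst-6, gst-12, gst-16 and gst-28 also lie above the WT points. For gst-1 these were 216, 244 and 226 TPM in nmr-2(ok3324) libraries and 213, 173 and 209 TPM in WT libraries. The share of all genes with such a gap in TPM was not counted.

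Summed over the family, the difference was small. The 4 risen genes together held 66.0, 56.4 and 61.9 CPM in nmr-2(ok3324) libraries and 30.17, 31.03 and 25.7 CPM in WT libraries, sums that follow from how these genes were picked. All 44 gst genes held 599, 530 and 578 CPM in nmr-2(ok3324) libraries and 545, 576 and 511 CPM in WT libraries, and these ranges overlapped. The means were 569 ± 35.5 CPM in nmr-2(ok3324) animals and 544 ± 32.6 CPM in WT animals (SD, n = 3 each), so the total transferase RNA differed by less than the libraries of 1 genotype did.

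Many gst genes are tandem copies: 25 of the 44 lie on chromosome II, most of them in 3 tight groups. In the group that opens with gst-20, 9 genes in 22.7 kb, gst-20 and gst-24 rose. Next to them gst-15 had a log2 fold change of 0.18 (edgeR adjusted p = 0.83), gst-12 of 0.38 (adjusted p = 0.46) and gst-16 of 0.34 (adjusted p = 0.51), and the other 4 had too few counts. The differences between neighbours were not tested. A second group, gst-26 to gst-35, holds 9 genes in 21.6 kb, and its 5 tested members had log2 fold changes of -0.23 to 0.45 with none past the threshold. gst-4 lies 163 bases from gst-2, which is on the opposite strand and had 5, 11 and 4 counts in nmr-2(ok3324) libraries and 1, 8 and 3 in WT libraries. gst-3, the next gene on, had 15, 12 and 9 counts in nmr-2(ok3324) libraries and 9, 14 and 5 in WT libraries (log2 fold change 0.18, edgeR adjusted p = 0.90). Reads from near-identical copies may have been split or dropped in counting, which was not tested. The strand setting of the counting is not stated, and the annotated exons of gsr-1, gst-36, gpx-1, gsto-1, skn-1 and gst-5 share 93, 93, 90, 52, 41 and 12 bases with a gene on the opposite strand, whose reads cannot be told apart there.

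**Figure D4:**
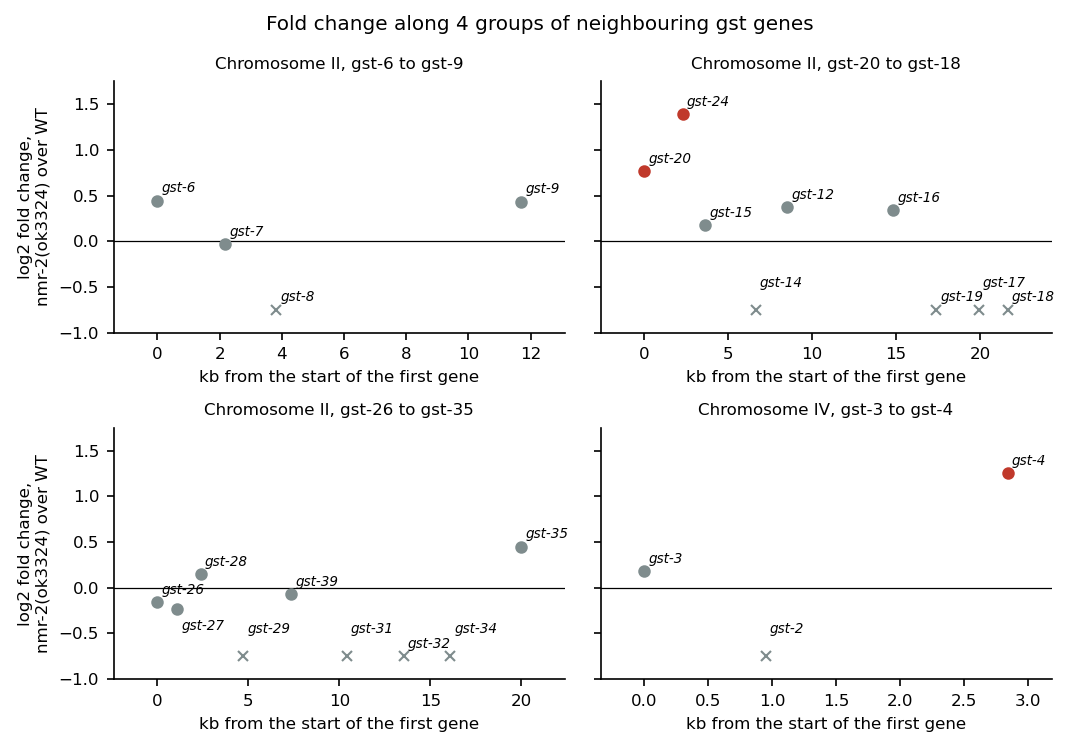
Log2 fold change (y axis, nmr-2(ok3324) over WT) of gst genes against distance along the chromosome in kb from the first gene of each of 4 groups; red points passed the threshold, grey points did not, and crosses at the foot mark genes with too few counts, whose height has no meaning. The points of gst-20 and gst-24 are the highest of their group, that of gst-4 lies above that of gst-3, and no gene of the group from gst-26 to gst-35 passed.

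The 17 members left untested were 15 gst genes, gsto-2 and gpx-8. gst-17 had no count in any library, which at these depths allows up to 0.106 to 0.145 CPM per library (3 counts; counting error only). This limit covers only the part of gst-17 outside the 351 of its 1085 exon bases that it shares with gst-18 on the same strand, where reads cannot be told apart. The others had 1 to 55 counts over the 6 libraries. The largest imbalance was in gst-41, with 12, 15 and 4 counts in nmr-2(ok3324) libraries and 2, 0 and 7 in WT libraries. The groups of gst-41 overlapped, and in a fit without the low-count filter it did not pass (log2 fold change 1.60, edgeR adjusted p = 0.40). That fit called the same 4 members as the filtered one, and 2.27% of all its genes higher and 0.796% lower. It was the more permissive of these fits. For gst-20, at a log2 fold change of 0.77 in both, the edgeR unadjusted p was 3.8e-07 without the filter and 0.00034 with it.

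The omega class transferases and the glutathione peroxidases gave no call. gsto-1, an omega transferase of the intestine, stood at 4.70 ± 0.625 CPM in nmr-2(ok3324) animals and 4.42 ± 0.494 CPM in WT animals (SD, n = 3 each; log2 fold change 0.09, edgeR adjusted p = 0.85), and gsto-3 had a log2 fold change of 0.02. Among the peroxidases, which reduce hydrogen peroxide and lipid peroxides, the 2 most abundant per length were gpx-5 and gpx-2. gpx-5 stood at 36.8, 35.9 and 33.8 CPM in nmr-2(ok3324) libraries and 36.0, 40.1 and 32.2 CPM in WT libraries, and gpx-2 at 44.6, 49.0 and 42.8 CPM in nmr-2(ok3324) libraries and 39.2, 45.6 and 41.8 CPM in WT libraries. Both pairs of groups overlapped, with log2 fold changes of -0.02 (95% interval -0.27 to 0.22) and 0.11 (-0.13 to 0.34). The remaining 5 tested, gpx-1, gpx-3, gpx-4, gpx-6 and gpx-7, ranged from -0.30 for gpx-7 to 0.76 for gpx-6, each with an edgeR adjusted p of 0.47 or more. gpx-4 and gpx-6 were below 1 CPM on average, and their wide intervals would not show a change of 1.5-fold.

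No gene that makes or recycles glutathione passed. gcs-1, for the rate-limiting ligase and itself a classic SKN-1 target, stood at 66.4, 75.6 and 65.4 CPM in nmr-2(ok3324) libraries and 67.3, 55.6 and 70.7 CPM in WT libraries. The groups overlapped, and the log2 fold change was 0.10 (95% interval -0.15 to 0.35, edgeR adjusted p = 0.67), so the upper end lies below the lower end of the interval for gst-4, 0.98. gss-1, for the second enzyme of the pathway, had a log2 fold change of -0.04 (-0.33 to 0.26). gsr-1, which returns oxidised glutathione to its reduced form, stood at 172, 154 and 173 CPM in nmr-2(ok3324) libraries and 197, 188 and 183 CPM in WT libraries. The gsr-1 groups did not overlap, yet the difference did not pass (log2 fold change -0.19, SE 0.11, edgeR adjusted p = 0.36). trxr-1, the cytosolic thioredoxin reductase, lay the other way at 84.8, 95.9 and 83.2 CPM in nmr-2(ok3324) libraries and 80.9, 71.3 and 81.6 CPM in WT libraries (log2 fold change 0.17, edgeR adjusted p = 0.39), again without overlap. prdx-2, a peroxiredoxin and the most abundant member per length at 929 ± 64.4 TPM in nmr-2(ok3324) animals and 929 ± 22.6 TPM in WT animals (SD, n = 3 each), had a log2 fold change of -0.19 (95% interval -0.53 to 0.14) on the CPM scale.

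The transcripts of the regulators did not differ past the threshold either. skn-1 stood at 147, 139 and 157 CPM in nmr-2(ok3324) libraries and 147, 149 and 146 CPM in WT libraries, with a log2 fold change of 0.00 (SE 0.10, 95% interval -0.21 to 0.22, edgeR adjusted p = 0.99). Counts cover all skn-1 isoforms together, and SKN-1 protein activity is not measured by them. wdr-23, whose product restrains SKN-1, stood at 47.9, 54.2 and 50.4 CPM in nmr-2(ok3324) libraries and 45.9, 42.0 and 43.4 CPM in WT libraries. Every mutant value of wdr-23 lay above every WT value, but the difference was small and did not pass (log2 fold change 0.22, SE 0.10, edgeR adjusted p = 0.30).

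Lists of other genes of the pathway gave no call with edgeR, DESeq2 or limma-voom. Beside the counts at an unadjusted p under 0.05 below, all tested genes gave 10.3% higher and 6.91% lower. Of 19 SKN-1 regulators, skn-1 and wdr-23 included, all were tested, 0 rose and 0 fell, with a median log2 fold change of 0.07 and 2 genes at an unadjusted p under 0.05. These were nsy-1 and tir-1, a kinase and an adaptor upstream of the p38 kinase PMK-1, with log2 fold changes of 0.42 and 0.60 (edgeR adjusted p = 0.15 and 0.22). Of 8 SKN-1 responsive genes outside the families, none passed, with a median of 0.31, 6 of 8 above 0 and 2 at an unadjusted p under 0.05. F56D5.3 had 1.14 ± 0.491 CPM in nmr-2(ok3324) animals and 0.327 ± 0.167 CPM in WT animals (SD, n = 3 each; log2 fold change 1.78, SE 0.54, edgeR adjusted p = 0.12). It passed in the fit without the low-count filter (1.77, adjusted p = 0.034), a more permissive fit that called 2.27% of all its genes higher and 0.796% lower. The arsenite-inducible gene aip-1 had a log2 fold change of -0.26 (adjusted p = 0.29). Of 7 tested superoxide dismutases and catalases none passed (median -0.09, 0 at an unadjusted p under 0.05), led by sod-2 (-0.21) and ctl-3 (-0.32). Of 14 tested thioredoxin, peroxiredoxin and glutaredoxin genes outside the members none passed (median -0.09, 1 at an unadjusted p under 0.05), led by prdx-6 (-0.38, adjusted p = 0.26) and prdx-3 (-0.25, adjusted p = 0.30). Of 14 tested genes for making, using and breaking down glutathione and its precursors, gcs-1, gss-1 and gsr-1 included, none passed (median -0.02, 2 at an unadjusted p under 0.05), led by the glyoxalase gene glod-4 (-0.35, adjusted p = 0.16) and cth-1 (-0.33, adjusted p = 0.24).

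Markers of tissues in which transferases are made were read from the same fit. Of 10 tested intestine markers none passed, with a median log2 fold change of -0.19 and 4 at an unadjusted p under 0.05, of which 1 was higher and 3 were lower in nmr-2(ok3324) animals. All tested genes gave 10.3% higher and 6.91% lower at that p. The lower ones were mtl-2 (-0.30), cpr-6 (-0.36) and ges-1 (-0.32), and the higher one was the peptide transporter gene pept-1 (0.34). The intestinal regulator gene elt-2 lay above WT in every mutant library, as did 13.4% of all tested genes (0.32, adjusted p = 0.32). cpr-6 was past the threshold with DESeq2 (-0.40, adjusted p = 0.018) and without both libraries numbered 2 (-0.35, adjusted p = 0.00045). The summed level of all 11 intestine markers was 3280 to 4529 CPM in nmr-2(ok3324) libraries and 4033 to 5572 CPM in WT libraries, ranges that overlapped. The largest part of that sum was asp-1, at 2121 ± 533 CPM in nmr-2(ok3324) animals and 2435 ± 662 CPM in WT animals (SD, n = 3 each). Of 10 tested epidermis markers 1 rose, the cuticle collagen gene sqt-3 (0.98, SE 0.20, edgeR adjusted p = 0.015), with a list median of 0.32 and a sum of 623 to 798 CPM in nmr-2(ok3324) libraries and 581 to 638 CPM in WT libraries. Most of the epidermis sum was vab-10, at 411 ± 68.2 CPM in nmr-2(ok3324) animals and 369 ± 22.5 CPM in WT animals (SD, n = 3 each). At an unadjusted p under 0.05, 3 epidermis markers were higher and 0 lower, beside 10.3% and 6.91% of all tested genes. The sqt-3 call was lost without nmr-2(ok3324) replicate 1 (0.74, adjusted p = 0.085) or WT replicate 3 (0.93, 0.061). DESeq2 and limma-voom also called the cuticle collagen gene rol-6, which edgeR did not (1.13, adjusted p = 0.069). Of 9 body wall muscle markers 1 rose, unc-89 (0.72, SE 0.15, edgeR adjusted p = 0.016), with a list median of 0.15 and a sum of 6026 to 7185 CPM in nmr-2(ok3324) libraries and 5725 to 6269 CPM in WT libraries. At an unadjusted p under 0.05, 3 muscle markers were higher and 0 lower, beside the same shares of all tested genes. The unc-89 call was lost without WT replicate 1 (0.75, adjusted p = 0.069) and with library totals alone (0.90, 0.064).

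Of 10 neuron markers none passed with any of the 3 tools (2 at an unadjusted p under 0.05, median 0.24, sum 183 to 196 CPM in nmr-2(ok3324) libraries and 194 to 203 CPM in WT libraries), led by unc-64 (0.43) and ric-19 (0.82). The 2 at that unadjusted p were higher, beside 10.3% higher and 6.91% lower among all tested genes. Of the 10, 8 had a log2 fold change above 0, as did 53.4% of all tested genes. Most of the sum was snb-1, which lay the other way (-0.20), at 128 ± 8.49 CPM in nmr-2(ok3324) animals and 147 ± 7.72 CPM in WT animals (SD, n = 3 each). Of 10 germ line markers none passed with any of the 3 tools, with a median of -0.25, led by pgl-3 (-0.35) and oma-1 (-0.27). At an unadjusted p under 0.05, 3 were lower and 0 higher, beside 6.91% and 10.3% of all tested genes, and 9 of 10 were below 0. For 6 of the 10 every mutant library lay below every WT library, as for 11% of all tested genes. The summed level of the germ line markers did not overlap between genotypes either, at 3444 to 4315 CPM in nmr-2(ok3324) libraries and 4376 to 4936 CPM in WT libraries. Of 14 molting and larval stage markers mlt-8 rose (1.25, SE 0.24, edgeR adjusted p = 0.0099), a call lost without WT replicate 3 (1.16, adjusted p = 0.053). DESeq2 also called noah-1 lower, which edgeR did not (-0.93, adjusted p = 0.076). Of the 14, 2 were higher and 1 lower at an edgeR unadjusted p under 0.05, beside 10.3% and 6.91% of all tested genes, with a list median of 0.003. The sum of these 14 was 32332 to 41344 CPM in nmr-2(ok3324) libraries and 40403 to 42654 CPM in WT libraries, nearly all of it vit-2 and vit-6. The other 12 summed to 143 to 149.5 CPM in nmr-2(ok3324) libraries and 143 to 152 CPM in WT libraries, ranges that overlapped. No marker in these 6 lists was at 0 in all libraries. The part of tissue proportions and of molting stage in the values of the gst genes was not tested.

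**Figure D5:**
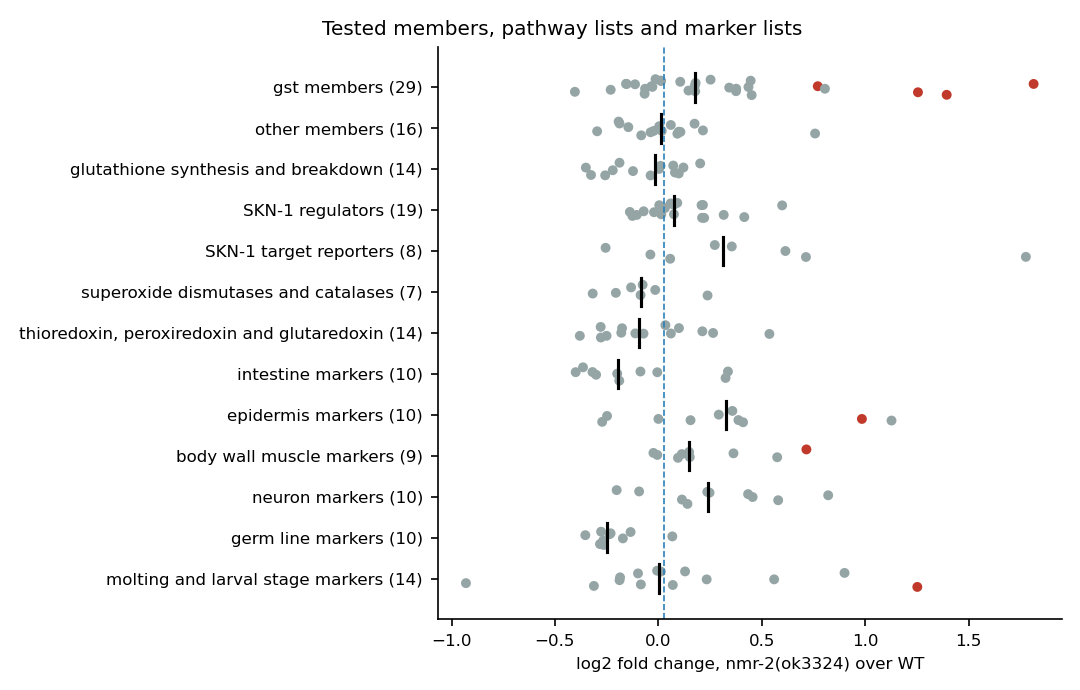
Log2 fold change (x axis, nmr-2(ok3324) over WT) of each tested gene in the gst family, the other members and 11 lists, with the number tested in brackets; red points passed the threshold, black ticks are medians and the dashed line is the median of all tested genes, 0.03. The red points in the top row are the 4 risen gst genes, and the rows of glutathione, SKN-1 and other redox genes hold none.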

How the data were processed

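The authors deposited whole-number read counts per gene for each library, without normalization. HTSeq and DESeq2 are named, with no version, per the submitters' processing notes; for aligner, build, annotation and strand setting, nothing is given in the sources used here. Of 46911 identifiers, 44059 were paired with a symbol from a name table, and coordinates and exon lengths came from WBcel235 (Ensembl release 115). The tests ran under R 4.3.3, in edgeR 4.0.16, with filterByExpr, TMM scaling, the quasi-likelihood F test (robust) and Benjamini-Hochberg adjustment over all tested genes at 0.05. "Rose" and "fell" mean past that threshold. The SE is the log2 fold change divided by the square root of F, and 95% intervals use the test's total degrees of freedom. CPM values use TMM factors; TPM values use union exon lengths and no TMM factor. Figures were drawn with matplotlib 3.10.9.

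Members, lists, tests and alternatives were chosen with earlier results of these data known. Named genes are the members past an adjusted or unadjusted p of 0.05, the 8 most abundant gst and 8 most abundant other members, all single-named, gsto and gpx genes that were tested, the extremes, and from each list those past the threshold or else the 2 with the smallest p. Genes outside this rule (dhs-12, gst-2, gst-3, gst-12, gst-13, gst-15, gst-16, gst-17, gst-28, gst-41, rol-6, noah-1, ges-1, pept-1, elt-2, asp-1, vab-10, snb-1, vit-2, vit-6 and those in the closing section) were chosen after their values were seen. The alternatives were DESeq2 1.42.0, limma-voom (limma 3.58.1), RLE scaling, library totals, no filter, 1 CPM in 3 libraries, a replicate block, leaving out each library, and leaving out both numbered 2. On simulated counts with the depth and spread of these libraries (12880 genes tested), edgeR called 41.8% of the genes given a 1.5-fold change, 80.6% at 2-fold and all 66 at 4-fold. The changed genes were drawn from those with a mean above 1 CPM, and each gene was simulated independently. These rates therefore do not cover rarer members or shifts shared by many genes of a library. Libraries of 1 genotype differed beyond sampling noise (chi-square per degree of freedom 10.2 to 44.3). The labels do not name separate cultures; the spread behind each p-value is that of the libraries and could be technical alone. Protein and promoter sequences were not analysed here.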

Additional observations from a re-analysis of the deposited data

How the results depend on the processing

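Depth limits the rare gst genes: members under about 1 CPM have intervals wider than a 2-fold change. The rise of gst-4 held under all 14 alternatives, those of gst-24 and gst-30 under 10 and that of gst-20 under 9. Members risen numbered 1 with the replicate block and 1 to 5 when 1 library was left out, and members fallen 0 throughout. Of all tested genes the block called 0.944% higher and 0.137% lower. Fits that left out 1 library called 1.12% to 1.68% higher and 0.222% to 0.389% lower. All genes changed numbered 596 without the low-count filter, 530 without both libraries numbered 2, 142 with the replicate block, and 189 to 259 when 1 library was left out. Deviations of same-numbered libraries had correlations of 0.00088, -0.28 and -0.10. With so few libraries these cannot decide whether the numbers pair them. With the replicate block gst-4 passed (edgeR adjusted p = 0.0012). The genes gst-20, gst-24 and gst-30 did not pass with it (0.17, 0.078 and 0.092), nor did unc-89 (0.17). The block changed no other call among named genes, and why these calls were lost was not tested. The median log2 fold change of tested members was 0.27 with library totals alone, where that of all genes was 0.20, and 0.22 without both libraries numbered 2; elsewhere it moved by less than the spread between libraries. Changes of sign fell on genes that did not pass, and their cause was not tested. With DESeq2 gst-1 was -0.021, skn-1 -0.029 and gsto-3 -0.016; with RLE scaling -0.017, -0.025 and -0.013; with limma-voom gpx-4 was 0.085; without the filter skn-1 was -0.00026. With library totals gst-7 was 0.13, gst-26 0.017, gst-36 0.028, gpx-5 0.16, gss-1 0.14, gpx-3 0.084 and gpx-4 0.053. Without both libraries numbered 2 gst-27 was 0.11, gst-26 0.0071, prdx-2 0.034, gpx-5 0.051, gss-1 0.23, gcs-1 -0.067, gpx-7 0.085, gpx-4 0.24 and sod-2 0.0032. Leaving out 1 library gave -0.033 to 0.065 for gst-1, -0.11 to 0.055 for gst-7, -0.12 to 0.47 for gst-10, -0.022 to 0.18 for gsto-1, -0.12 to 0.12 for gsto-3, -0.056 to 0.22 for gpx-1, -0.25 to 0.13 for gpx-3, -0.56 to 0.20 for gpx-4, -0.11 to 0.050 for gpx-5, -0.0063 to 0.16 for gcs-1, -0.13 to 0.13 for gss-1 and -0.046 to 0.041 for skn-1.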

Other observations

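Genes of other kinds lie among the tandem transferases, and of the 4 tested none passed, while R05F9.7 had no count. Beside gst-6 and gst-7 on chromosome II, the major sperm protein gene msp-33 stood at 153 ± 29.0 CPM in nmr-2(ok3324) animals and 136 ± 19.1 CPM in WT animals (SD, n = 3 each; log2 fold change 0.17, edgeR adjusted p = 0.53). pgm-1 stood there at 185 ± 19.4 CPM in nmr-2(ok3324) animals and 199.9 ± 11.1 CPM in WT animals (SD, n = 3 each; -0.11, edgeR adjusted p = 0.62). Within the group from gst-26 to gst-35, Y53F4B.36 was a rare transcript at 0.966 ± 0.0961 CPM in nmr-2(ok3324) animals and 0.450 ± 0.312 CPM in WT animals (SD, n = 3 each; 1.07, SE 0.54, edgeR adjusted p = 0.32).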
